A study of Mus with 51 samples.

Results

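A set of 10 genes known from killer lymphocytes was followed through a time course of CD4 T cell activation: Gzmb, Gzma, Prf1, Nkg7, Ccl5, Klrd1, Klrk1, Cd8a, Cd8b1 and Eomes. They are 10 of 34923 genes in the count table, taken as the granzyme, perforin, NK receptor and CD8 genes, and they were chosen because Gzmb was high in MCC CD69-lo cells at 24 h. That reading, MCC CD69-lo against NP at 24 h, and the other 24 h contrasts that use the MCC CD69-lo libraries are therefore given below as values with no test. The cells were T cells sorted from lymph nodes of mice with the 5C.C7 T cell receptor transgene on a B10.A Rag2-deficient background (strain label B10.A-Rag2tm1FwaH2-T18aTg (Tcra5CC7,Tcrb5CC7)lwep), and all 18 groups share the receptor and the Rag2 deficiency. Cells received no peptide (NP), GP (taken here as the endogenous self-peptide of the series' title), MCC (the moth cytochrome c peptide, an agonist of this receptor) or MCC with GP (MCC+GP). Cells given MCC were sorted into those with high (CD69-hi) and low (CD69-lo) surface CD69, an early activation marker, and cells were collected at 1, 6 and 24 h. There were 51 libraries: 15 groups held 3 and 3 groups (NP, GP and MCC CD69-lo at 6 h) held 2. The labels give no age, do not say whether peptide was given in the animal or in a dish, and do not say whether libraries of 1 group came from separate animals, so p-values measure the spread between these libraries, which may be technical.

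Killer lymphocytes, which are NK cells and CD8 T cells, store perforin and granzymes in granules and release them onto a target: perforin opens the membrane and granzymes cleave proteins inside. CD4 T cells mostly help other cells, and the transcription factor ThPOK (Zbtb7b) holds down CD8-lineage genes in them, yet some activated CD4 T cells are known to make granzyme B. Rag2 deficiency with a fixed receptor removes B cells and most other T cells from these mice, but NK cells do not need Rag2 and remain, and they express most of the 10 genes at rest.

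Total counts ran from 29030 to 10278776 per library, with a median of 5436653. The 3 MCC+GP CD69-lo 24 h libraries were the shallowest, at 237390, 29030 and 301455 counts for replicates 1 to 3. In replicate 2 of that group a single count equals 16.6 CPM (counts scaled to 1e+06 per library, normalized by the trimmed mean of M-values), so a gene under 49.7 CPM, which is 3 counts, could not be told from 0 there. The markers of CD4 T cells were present in every group: Cd4 ran from 592 to 655 CPM in NP at 24 h and from 149 to 313 CPM in MCC+GP CD69-lo at 24 h, and Cd3e from 245 to 293 and from 33.1 to 104 CPM. In bulk libraries, fewer cells of a type and less RNA per cell cannot be told apart. Scaling by relative log expression in place of the trimmed mean shifted the log2 fold changes by 0.34 in MCC+GP CD69-lo against GP at 24 h, by -0.50 in MCC+GP CD69-hi against MCC+GP CD69-lo at 24 h and by between -0.23 and 0.27 in the other comparisons. No member's fold change turned sign under that scaling among those that passed the test.

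The 10 genes moved in opposite directions after agonist. In CD69-hi cells at 24 h Gzmb and Nkg7 rose from near 0, while Prf1 and Klrd1 fell, with and without GP. In CD69-lo cells given MCC+GP, 6 of the 10 genes rose at 24 h, among them Gzma, Cd8a and Klrk1, none of which passed as higher in a CD69-hi comparison. The summed level of NK cell markers, leaving out Xcl1, ran from 265 to 488 CPM in those libraries against at most 17.5 CPM in NP and GP at 24 h. Tyrobp, which myeloid cells also make, held from 102 to 227 CPM of that sum. Ccl5 rose first, at 1 h. No member passed in GP against NP at any time.

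In MCC CD69-hi against NP, 1 of 10 members passed a false discovery rate of 0.05 at 1 h, where 29.4% of the 17211 genes tested did. At 6 h 6 members passed against 46.7% of all genes, and at 24 h 6 members against 57.8%, of which 3 rose (29.2% of all genes) and 3 fell (28.7%). With GP present in both arms (MCC+GP CD69-hi against GP) the counts were 2, 4 and 5 members at 1, 6 and 24 h, against 33.8%, 46.7% and 58.5% of all genes. These shares lie near or below the background, so the count of members called is no result about them, and the directions and sizes of single genes follow. In MCC CD69-lo against NP 1 member passed at 1 h (3.15% of all genes) and 1 at 6 h (2.12%). In MCC+GP CD69-lo against GP 0 members passed at 1 h (2.18%), 2 at 6 h (10.3%) and 7 at 24 h (33.7%), of which 6 rose (15.3%) and 1 fell (18.4%). The 7 of 10 at 24 h are more than that share but are only a description. The members were chosen on CD69-lo cells of the same time, given MCC. A gene can also pass the filter on low counts through the group where it is high. The 0 at 1 h compares with 1 member by DESeq2 and 2 (Ccl5 and Cd8a) at an unadjusted p under 0.05. CD69-hi and CD69-lo cells given MCC+GP differed in 1 member at 1 h (18.7% of all genes), in 8 at 6 h (46.1%) and in 7 at 24 h (46.6%). For MCC without GP the same comparison gave 0 at 1 h (12.5%; 0 by DESeq2, and 1, Cd8b1, at an unadjusted p under 0.05) and 4 at 6 h (42.4%). The comparisons with NP share the NP libraries of their time, and those with GP share the GP libraries.

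**Figure D1:**
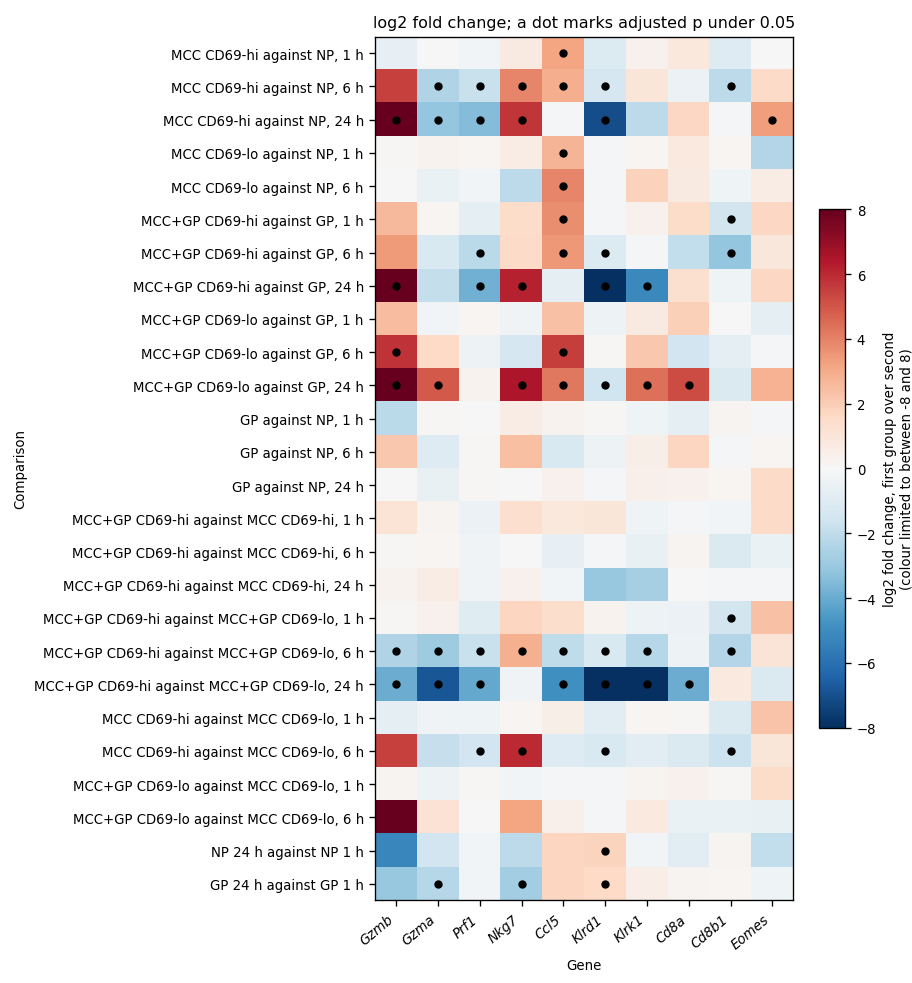
Each cell gives the fitted log2 fold change of 1 gene (columns) in 1 comparison (rows), first group over second, with colour limited to between -8 and 8, and a dot marks an adjusted p under 0.05 (edgeR's quasi-likelihood test). Gzmb and Nkg7 are red and Prf1 and Klrd1 blue in the CD69-hi rows at 24 h, and the 3 rows of GP against NP hold no dot.

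In that map, fitted fold changes against a group with no counts depend on the prior count and are no measure of size.

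Gzmb encodes granzyme B, the granzyme that triggers target-cell death through caspases (ENSMUSG00000015437, chromosome 14, 56258836 to 56262334, mm10). At 24 h it had 0 counts in all 3 NP and all 3 GP libraries. In MCC CD69-hi libraries at 24 h it stood at 13.4, 6.90 and 18.4 CPM for replicates 1 to 3, and in MCC+GP CD69-hi libraries at 17.4, 9.30 and 20.8 CPM. Each of these 6 libraries lay above each of the 6 without agonist. Against 3 counts over the group, Gzmb was at least 73.7-fold higher in MCC CD69-hi than in NP (adjusted p = 4.61e-05, edgeR's quasi-likelihood test with Benjamini-Hochberg adjustment) and at least 96.9-fold higher in MCC+GP CD69-hi than in GP (adjusted p = 1.94e-05). The lower 95% counting limits of these ratios were 59.5 and 78.4. The comparison with NP uses the NP libraries that also stand in the contrast by which the genes were chosen.

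The highest Gzmb levels were in CD69-lo cells at 24 h. MCC CD69-lo libraries, which chose the gene, held 114, 35.3 and 194 CPM, at least 563-fold above NP as a description (lower 95% counting limit of the ratio 457). In MCC+GP CD69-lo cells, which the choice did not use, Gzmb stood at 275 CPM in replicate 1 (86 counts), at 0 in replicate 2 and at 376 CPM in replicate 3 (144 counts). Replicates 1 and 3 were above every other library of the series and replicate 2, the one of 29030 counts, was at 0 like the controls, so the groups overlapped. The limit of replicate 2, 49.7 CPM or 3 counts, lies below the levels of replicates 1 and 3, so the replicates differed. Over the group Gzmb was at least 1764-fold higher than in GP at 24 h against 3 counts over the GP group (lower 95% counting limit of the ratio 1423, adjusted p = 5.31e-08, edgeR's quasi-likelihood test). It was lower in MCC+GP CD69-hi than in MCC+GP CD69-lo cells, with a log2 fold change of -3.99 ± 0.77 (SE, adjusted p = 9.46e-05).

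At 1 h and 6 h Gzmb was scarce. Its largest value at 1 h was 3.20 CPM (3 counts, MCC+GP CD69-hi replicate 1), and NP libraries held 0.615, 0.600 and 1.71 CPM. At 6 h MCC CD69-hi libraries held 1.42, 1.39 and 0.574 CPM against 0 in both NP libraries, a difference that did not pass (adjusted p = 0.128). MCC+GP CD69-lo libraries at 6 h held 0.367, 0.932 and 17.0 CPM, so replicate 3 stood apart. The NK cell markers Ncr1 and Klrb1c were at 0, 0 and 6.09 CPM and at 0, 0 and 2.96 CPM there, while the sum of NK cell markers without Xcl1 was 23.5, 58.1 and 55.3 CPM, as high in replicate 2 as in replicate 3. Their part in the Gzmb value was not tested. Gzmb passed there against GP (108 counts against 1, a ratio of 79.0 with a 95% counting interval from 13.9 to 3149, adjusted p = 0.0295) and, in the other direction, in MCC+GP CD69-hi against MCC+GP CD69-lo (-2.41 ± 0.95, adjusted p = 0.0396). Without replicate 3 the log2 fold change of the first was 2.33 (adjusted p = 0.601) and the second turned to 1.02 (adjusted p = 0.538). The first was also lost without GP 6 h replicate 1 (adjusted p = 0.21) or replicate 2 (0.196), and the second without MCC+GP CD69-hi 6 h replicate 1 (0.105) or replicate 2 (0.135). With no filter on low counts both missed the threshold (0.0585 and 0.0902), as did the second under DESeq2 (0.0504).

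**Figure D2:**
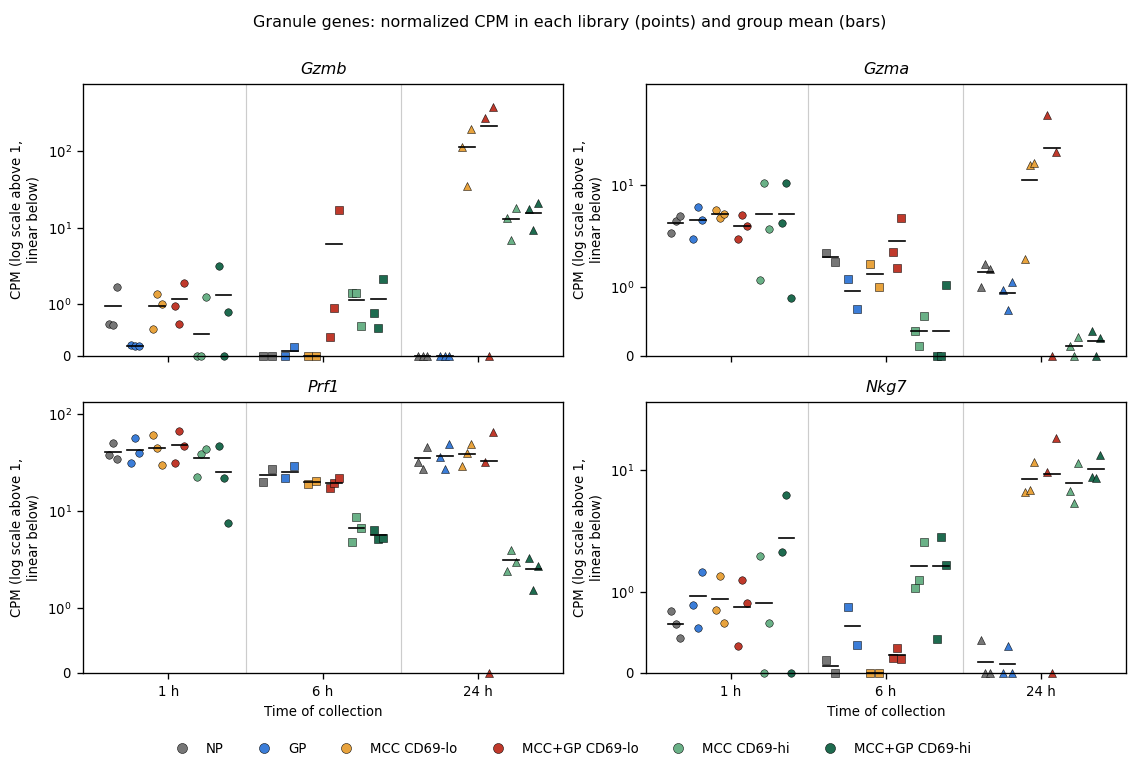
Points are the normalized CPM of Gzmb, Gzma, Prf1 and Nkg7 in each of the 51 libraries, grouped by time on the x axis and coloured by group, and bars are group means; the y axis is logarithmic above 1 CPM and linear below. At 24 h Gzmb lies between 6.90 and 20.8 CPM in CD69-hi libraries and at 0 in NP and GP, and Prf1 lies between 1.55 and 3.98 CPM in CD69-hi libraries against 26.9 to 48.7 CPM in NP and GP.

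Gzma encodes granzyme A, a tryptase that is present in resting NK cells (ENSMUSG00000023132, chromosome 13, 113093824 to 113100981, mm10, where it overlaps Cdc20b). It was low without agonist: 3.38, 4.40 and 4.93 CPM in NP at 1 h and 1.01, 1.69 and 1.52 CPM at 24 h. In MCC CD69-hi cells at 24 h it held 0.141, 0 and 0.272 CPM, below every NP library. Gzma fell in these libraries, in which Gzmb rose, with 3 counts against 24 (ratio 0.101, 95% counting interval 0.0194 to 0.331, adjusted p = 0.00391), and it also fell by 2.38 ± 0.87 on the log2 scale at 6 h (adjusted p = 0.020). The 6 h call was lost without NP 6 h replicate 1 (adjusted p = 0.0882) or MCC CD69-hi 6 h replicate 2 (0.0853). The MCC+GP CD69-hi libraries at 24 h held 0.362, 0 and 0.256 CPM against 0.960, 0.673 and 1.12 in GP.

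In CD69-lo cells at 24 h the group means of Gzma, like those of Gzmb, were above NP and GP, but the libraries did not rank alike for both genes. MCC+GP CD69-lo libraries held 47.9 CPM (15 counts), 0 and 20.9 CPM (8 counts), with the 0 again in the library of 29030 counts, and Gzma rose against GP by 4.93 ± 0.80 on the log2 scale (adjusted p = 1.57e-06). MCC CD69-lo libraries held 1.89, 15.6 and 16.3 CPM. Replicate 1 of these, on 2 counts of Gzma, lay close to the highest NP library (1.69 CPM), while its Gzmb stood at 114 CPM. Between MCC+GP CD69-hi and MCC+GP CD69-lo the log2 difference was -6.82 ± 0.90 at 24 h (adjusted p = 5.33e-09) and -2.82 ± 0.80 at 6 h (adjusted p = 0.00261).

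Prf1 encodes perforin, the pore former (ENSMUSG00000037202, chromosome 10, 61297751 to 61304684, mm10). Unlike the granzymes it was readily detected in cells that had seen no peptide: 37.3, 50.2 and 34.3 CPM in NP at 1 h, 19.9 and 26.9 CPM at 6 h and 32.0, 27.1 and 45.1 CPM at 24 h. In MCC CD69-hi cells it held 4.80, 8.76 and 6.61 CPM at 6 h and 2.39, 3.98 and 2.99 CPM at 24 h, with no overlap at either time. Prf1 fell by 1.78 ± 0.39 on the log2 scale at 6 h (adjusted p = 0.000156), and its log2 fold change was -3.48 ± 0.39 at 24 h (adjusted p = 1.91e-10). With GP in both arms it fell by 2.18 ± 0.40 at 6 h (adjusted p = 1.26e-05) and by 3.83 ± 0.40 at 24 h (adjusted p = 2.61e-11).

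CD69-lo cells held Prf1 at a level that was not shown to differ from unstimulated cells. MCC+GP CD69-lo libraries held 31.9, 0 and 65.2 CPM at 24 h and 17.1, 19.6 and 21.9 CPM at 6 h, and neither passed against GP (log2 fold change 0.26 with a 95% interval from -0.71 to 1.23 at 24 h, and -0.38 with one from -1.13 to 0.38 at 6 h). MCC CD69-lo libraries held 29.3, 39.2 and 48.3 CPM at 24 h. Between the sorted populations, MCC CD69-hi cells were lower than MCC CD69-lo cells at 6 h by -1.53 ± 0.40 on the log2 scale (adjusted p = 0.00128), and MCC+GP CD69-hi cells were lower than MCC+GP CD69-lo cells by -1.80 ± 0.38 at 6 h (adjusted p = 0.000112) and by -4.09 ± 0.60 at 24 h (adjusted p = 2.22e-07). Prf1 passed in 7 of the 25 planned comparisons, each time as lower in CD69-hi cells.

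Nkg7 encodes a granule membrane protein needed for efficient granule release (ENSMUSG00000004612, chromosome 7, 43437138 to 43438246, mm10). NP libraries at 24 h held 0.402, 0 and 0 CPM, and GP libraries 0, 0.336 and 0. CD69-hi libraries at 24 h held 6.76, 5.36 and 11.4 CPM with MCC and 8.70, 8.53 and 13.3 CPM with MCC+GP, all above all controls. The gene rose against NP with 167 counts against 2 (ratio 67.1, 95% counting interval 18.3 to 559, adjusted p = 4.77e-08) and against GP with 220 against 2 (ratio 90.1, interval 24.7 to 749, adjusted p = 6.43e-09).

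CD69-lo cells also held Nkg7 at 24 h. It was at 6.61, 6.80 and 11.7 CPM in MCC CD69-lo and at 9.58, 0 and 18.3 CPM in MCC+GP CD69-lo libraries, where it rose against GP with 10 counts against 2 (ratio 115, 95% counting interval 24.5 to 1080, adjusted p = 3.09e-06). Between MCC+GP CD69-hi and MCC+GP CD69-lo at 24 h its log2 difference was -0.30, with a 95% interval from -1.78 to 1.19, and did not pass (adjusted p = 0.794). At 6 h the order differed: MCC CD69-hi libraries held 1.07, 1.25 and 2.58 CPM and both MCC CD69-lo libraries 0, so Nkg7 was at least 6.31-fold higher in CD69-hi against 3 counts over the group (33 counts against 0, with a lower 95% counting limit of 4.85 on the ratio, adjusted p = 0.000643). Nkg7 was also higher in MCC CD69-hi than in NP at 6 h (33 counts against 1, ratio 19.6, interval 3.28 to 798, adjusted p = 0.00321, or 0.0646 without NP 6 h replicate 2). With GP present it was higher in MCC+GP CD69-hi than in MCC+GP CD69-lo (29 against 3, ratio 8.34, interval 2.59 to 42.8, adjusted p = 0.00676, or 0.061 without MCC+GP CD69-hi 6 h replicate 2). Against GP at 6 h the MCC+GP CD69-hi libraries overlapped and did not pass (29 counts against 6, ratio 3.05, interval 1.25 to 8.99, adjusted p = 0.147, edgeR's quasi-likelihood test).

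Ccl5 encodes RANTES, a chemokine that memory CD8 T cells and NK cells store and that draws in T cells and monocytes (ENSMUSG00000035042, chromosome 11, 83525778 to 83530518, mm10, where it overlaps Gm32650). It was the one member that rose at 1 h. At 1 h NP libraries held 0.922, 0.800 and 1.29 CPM, MCC CD69-hi libraries 9.45, 3.50 and 11.4 CPM and MCC+GP CD69-hi libraries 9.59, 24.8 and 15.2 CPM. Ccl5 rose by 3.16 ± 0.78 on the log2 scale in MCC CD69-hi against NP (adjusted p = 0.0018) and by 3.74 ± 0.77 in MCC+GP CD69-hi against GP (adjusted p = 0.000233), with no overlap in either.

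By 6 h Ccl5 was higher in the CD69-lo than in the CD69-hi cells given MCC+GP. MCC+GP CD69-lo libraries held 24.8, 49.4 and 71.3 CPM, MCC+GP CD69-hi libraries 12.8, 6.74 and 15.5 CPM, and GP libraries 1.81 and 0.344 CPM. It rose in MCC+GP CD69-lo against GP by 5.52 ± 0.82 (adjusted p = 7.04e-06) and in MCC+GP CD69-hi against GP by 3.47 ± 0.83 (adjusted p = 0.000563), and the difference between CD69-hi and CD69-lo was -2.05 ± 0.52 (adjusted p = 0.00116). Without GP the CD69-lo libraries held 41.3 and 31.7 CPM, against 4.78 and 0 CPM in NP (log2 fold change 3.89 ± 0.74, adjusted p = 0.000839). That call was lost without NP 6 h replicate 2 (adjusted p = 0.0556) and when only the compared groups were fitted (0.254). The MCC CD69-hi libraries held 18.8, 11.1 and 24.6 CPM at 6 h and rose against NP by 2.89 ± 0.70 (adjusted p = 0.000713; 0.0646 when other groups were left out). Markers of other cells moved with these values. In MCC+GP CD69-lo against GP at 6 h, 4 of 12 tested NK cell markers, 8 of 15 myeloid and dendritic markers and 7 of 12 B cell markers rose. Of all genes, 10.3% passed there in either direction. The NK cell sum without Xcl1 ran from 23.5 to 58.1 CPM there against 4.81 to 6.05 in GP, and the myeloid sum from 1502 to 2285 CPM against 554 to 660. In MCC CD69-lo the NK cell sum was 24.2 and 30.6 CPM against 3.87 and 13.8 in NP, and the myeloid sum 1462 and 1650 CPM against 565 and 654. The part of such cells in the 6 h values of Ccl5 was not tested.

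At 24 h Ccl5 stood at 2.11, 2.15 and 4.35 CPM in MCC CD69-hi libraries, beside 3.22, 2.64 and 3.95 in NP, and it passed neither there nor in MCC+GP CD69-hi against GP. MCC+GP CD69-lo libraries held 76.7, 116 and 62.6 CPM, above all GP libraries (4.80, 1.51 and 6.07), a rise of 4.20 ± 0.69 (adjusted p = 7.53e-06), and above the MCC+GP CD69-hi libraries (2.42, 1.36 and 3.58 CPM; -4.90 ± 0.71, adjusted p = 3.61e-07). MCC CD69-lo libraries held 20.8, 28.2 and 15.8 CPM. At 1 h the CD69-lo cells given MCC held 1.80, 8.65 and 8.84 CPM (log2 fold change against NP 2.70 ± 0.74, adjusted p = 0.032). The test with each library but MCC CD69-lo 1 h replicate 1 left out in turn gave adjusted p values from 0.0933 to 0.174.

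Klrd1 encodes CD94, which pairs with NKG2 proteins into receptors for a nonclassical class I molecule, and Klrk1 encodes NKG2D, a receptor for stress ligands; they lie 11547 bases apart in the NK gene complex on chromosome 6 (Klrd1 ENSMUSG00000030165, 129588092 to 129598775; Klrk1 ENSMUSG00000030149, 129610323 to 129623903, mm10). Klrd1 rose between 1 h and 24 h without agonist. It stood at 5.53, 9.40 and 11.8 CPM in NP at 1 h and at 24.1, 36.9 and 28.6 CPM at 24 h, a rise of 1.76 ± 0.37 on the log2 scale (adjusted p = 0.0002), and it was 1 of 10 members to pass there against 24% of all genes. GP libraries did likewise, from 8.21, 8.54 and 11.2 CPM to 23.8, 28.8 and 32.7 CPM (1.61 ± 0.37, adjusted p = 0.000641), in a comparison added after the values were seen, where 3 of 10 members passed against 22.9% of all genes. The other 2 fell there: Gzma by 2.28 ± 0.69 (adjusted p = 0.0114), lost without GP 1 h replicate 2 (0.0644) or GP 24 h replicate 2 (0.0592), and Nkg7 with 2 counts against 15 (ratio 0.120, 95% counting interval 0.0133 to 0.516, adjusted p = 0.0358). The Nkg7 call was lost without GP 1 h replicate 1 (0.057) or 3 (0.158), without GP 24 h replicate 1 (0.13) or 3 (0.148), and with no filter on low counts (0.0602).

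After agonist Klrd1 fell. CD69-hi libraries at 24 h held 0.282, 0.306 and 0 CPM of Klrd1 with MCC and 0 counts in all 3 with MCC+GP. The gene fell by 7.10 ± 0.57 on the log2 scale against NP (adjusted p = 2.83e-16) and was at least 203-fold lower in MCC+GP CD69-hi than in GP (upper 95% counting limit of the ratio 0.00607, adjusted p = 3.38e-17). These were the smallest adjusted p-values of any member. At 6 h it had reached 2.84, 3.34 and 4.60 CPM in MCC CD69-hi against 11.2 and 7.56 CPM in NP (-1.37 ± 0.43, adjusted p = 0.007; 0.115 without NP 6 h replicate 1). The other 6 h calls of Klrd1 were weaker: -1.12 ± 0.46 in MCC+GP CD69-hi against GP (adjusted p = 0.0377), -1.22 ± 0.44 between the sorted populations given MCC (0.0198) and -1.24 ± 0.42 between those given MCC+GP (0.012), CD69-hi against CD69-lo. The first was lost without GP replicate 1 (adjusted p = 0.068) or 2 (0.173) or MCC+GP CD69-hi replicate 1 (0.103) or 2 (0.0714). The second was lost without MCC CD69-lo replicate 1 (0.0724) or 2 (0.0785) or MCC CD69-hi replicate 1 (0.0694) or 2 (0.0636), and the third without MCC+GP CD69-lo replicate 3 (0.248) or MCC+GP CD69-hi replicate 1 (0.0605).

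In CD69-lo cells at 24 h Klrd1 was intermediate, at 3.78, 5.18 and 12.2 CPM with MCC and at 16.0, 0 and 5.22 CPM with MCC+GP, on 7 counts in the latter. It passed as lower than GP there (-1.62 ± 0.64, adjusted p = 0.0429) but not with relative log expression scaling (0.118), with DESeq2 (0.112) or when other groups were left out of the fit (0.115). The call was also lost without MCC+GP CD69-lo replicate 2 (0.0862) or 3 (0.335) and without GP replicate 2 (0.0611) or 3 (0.0804). Klrd1 was lower still in MCC+GP CD69-hi, with 0 counts against these 7, which is at least 65.5-fold against 3 counts over the group (upper 95% counting limit of the ratio 0.0247, adjusted p = 1.15e-06).

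Klrk1 was scarce without agonist, at 1.41, 1.69 and 2.58 CPM in NP and 1.34, 2.52 and 3.83 CPM in GP at 24 h. CD69-hi libraries held less at 24 h: 0.141, 0.460 and 0.680 CPM with MCC and 0, 0 and 0.128 CPM with MCC+GP. It fell in the latter against GP, with 1 count against 46 (ratio 0.0178, 95% counting interval 0.000441 to 0.104, adjusted p = 0.00109). CD69-lo libraries held more than CD69-hi libraries: 0.945, 13.3 and 21.4 CPM with MCC and 51.1, 82.8 and 49.5 CPM with MCC+GP. Replicate 1 of MCC CD69-lo, on 1 count, lay below every NP and GP library at 24 h. All 3 MCC+GP CD69-lo libraries, the one of 29030 counts included (5 counts), lay above all GP libraries, a rise of 4.42 ± 0.91 on the log2 scale (adjusted p = 0.000178), and above the MCC+GP CD69-hi libraries (adjusted p = 5.77e-08). At 6 h it was at 2.02, 11.2 and 12.4 CPM in MCC+GP CD69-lo and at 2.27, 0.532 and 2.43 CPM in MCC+GP CD69-hi libraries (-2.26 ± 0.83, adjusted p = 0.023). That call was lost without MCC+GP CD69-lo replicate 2 (0.0625) or 3 (0.108) or MCC+GP CD69-hi replicate 2 (0.115).

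**Figure D3:**
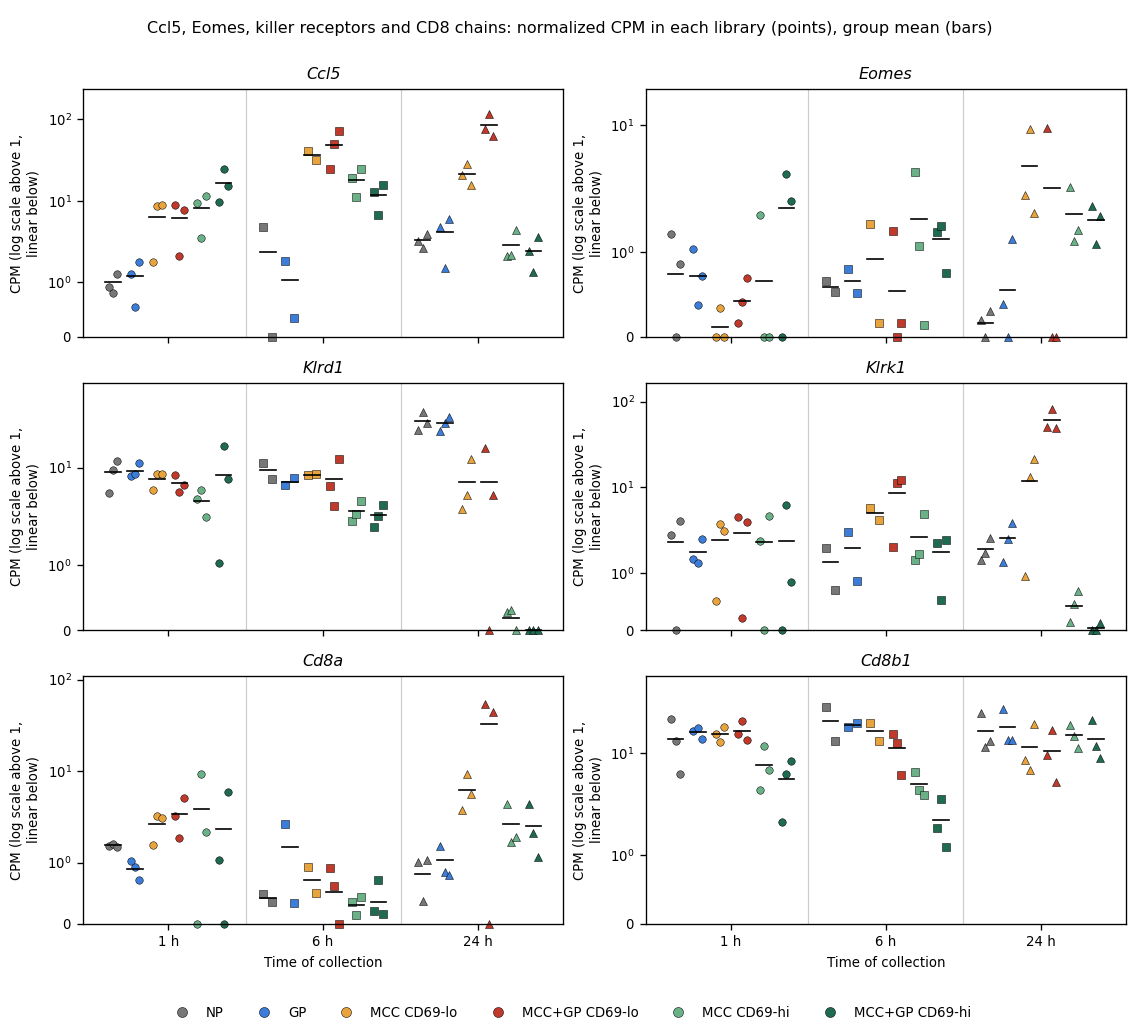
Points are the normalized CPM of Ccl5, Eomes, Klrd1, Klrk1, Cd8a and Cd8b1 in each library by time and group, with group means as bars; the y axis is logarithmic above 1 CPM and linear below. At 24 h Klrd1 lies between 23.8 and 36.9 CPM in NP and GP and between 0 and 0.306 CPM in CD69-hi libraries, and Cd8a reaches 54.3 CPM in MCC+GP CD69-lo.

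Cd8a and Cd8b1 encode the alpha and beta chains of CD8, 35934 bases apart on chromosome 6 (Cd8a ENSMUSG00000053977, 71373427 to 71379171; Cd8b1 ENSMUSG00000053044, 71322788 to 71337492, mm10). CD8 T cells carry both chains, while some dendritic cells and innate lymphocytes carry alpha alone. The chains did not move together. Cd8b1 was detected in all unstimulated libraries, at 21.4, 13.0 and 6.21 CPM in NP at 1 h and 24.3, 11.3 and 13.1 CPM at 24 h, while Cd8a in the same libraries was at 1.54, 1.60 and 1.50 CPM and 1.01, 0.377 and 1.06 CPM.

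Cd8b1 fell in CD69-hi cells at 6 h. MCC CD69-hi libraries held 6.57, 4.31 and 3.88 CPM against 28.0 and 13.2 in NP (-2.08 ± 0.44 on the log2 scale, adjusted p = 8.75e-05), and MCC+GP CD69-hi libraries 1.86, 3.55 and 1.21 CPM against 17.7 and 19.6 in GP (-3.08 ± 0.49, adjusted p = 5.51e-07). No libraries overlapped in either. Against CD69-lo cells of the same peptides the 6 h differences were -1.74 ± 0.45 with MCC (adjusted p = 0.00119) and -2.34 ± 0.48 with MCC+GP (adjusted p = 5.19e-05). At 24 h the CD69-hi libraries lay among the controls, at 18.6, 14.7 and 11.2 CPM with MCC and 21.0, 11.6 and 8.82 CPM with MCC+GP, and no call was made. At 1 h the MCC+GP CD69-hi libraries held 2.13, 6.20 and 8.43 CPM on 18 counts, and passed against GP (-1.46 ± 0.55, adjusted p = 0.036) and against MCC+GP CD69-lo (-1.50 ± 0.55, adjusted p = 0.0481). Both 1 h calls were lost under relative log expression scaling (adjusted p = 0.0948 and 0.124), under DESeq2 (0.0769 and 0.102), and without any 1 of the 3 MCC+GP CD69-hi libraries (0.0574 to 0.231 and 0.0746 to 0.243). The first was also lost without GP 1 h replicate 1 (0.0949) or 2 (0.111), and the second without any 1 of the MCC+GP CD69-lo libraries (0.0691 to 0.165).

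Cd8a passed in 2 comparisons, both with MCC+GP CD69-lo cells at 24 h. In MCC+GP CD69-lo libraries at 24 h it stood at 54.3 CPM (17 counts), 0 and 44.3 CPM (17 counts), against 1.54, 0.841 and 0.798 CPM in GP, a rise of 5.24 ± 0.83 on the log2 scale (adjusted p = 1.01e-06). It was lower in MCC+GP CD69-hi (4.35, 2.13 and 1.15 CPM) by -3.96 ± 0.77 (adjusted p = 1.88e-05). MCC CD69-lo libraries held 3.78, 9.39 and 5.60 CPM. MCC CD69-hi libraries at 24 h held 4.36, 1.69 and 1.90 CPM of Cd8a, each above every NP library. That difference did not pass (56 counts against 14, ratio 3.22, 95% counting interval 1.77 to 6.26, adjusted p = 0.0595, edgeR's quasi-likelihood test). The MCC+GP CD69-hi libraries overlapped those of GP and did not pass either (adjusted p = 0.14, same test). Cd8b1 in the same 3 MCC+GP CD69-lo libraries was at 9.58, 16.6 and 5.22 CPM on 6 counts and did not pass. Per length, in the authors' TPM-type values, the mean was 0.227 for Cd8a and 0.159 for Cd8b1 in MCC+GP CD69-lo at 24 h, within their spread, and 0.00413 and 0.149 in NP at 24 h.

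Eomes encodes Eomesodermin, the T-box factor that drives Prf1 and other killer genes in CD8 T and NK cells (ENSMUSG00000032446, chromosome 9, 118478186 to 118486132, mm10, where it overlaps Gm33408). It stayed below 10 CPM in every library. At 24 h NP libraries held 0.201, 0 and 0.304 CPM and MCC CD69-hi libraries 3.24, 1.23 and 1.50 CPM, a rise with 42 counts against 3 (ratio 11.3, 95% counting interval 3.60 to 56.8, adjusted p = 0.0111). The call was lost without MCC CD69-hi replicate 1 (adjusted p = 0.0566) or NP replicate 2 (0.054), and MCC+GP CD69-hi libraries (2.30, 1.16 and 1.92 CPM) did not pass against GP (0.384, 0 and 1.28). Eomes held 3 counts over the MCC+GP CD69-lo libraries at 24 h, all in replicate 1, and MCC CD69-lo libraries held 2.83, 9.39 and 2.04 CPM.

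Per length, from the authors' TPM-type column, which sums to about 1e+04 per library, Klrd1 and then Prf1 led the 10 genes in NP at 24 h. Mean values there were 0.605 ± 0.114 (SD, n = 3) for Klrd1, 0.232 ± 0.073 for Prf1 and 0.149 ± 0.065 for Cd8b1, and the other 7 genes lay at or below 0.0746 (Ccl5). At 1 h Prf1 was ahead of Klrd1 in NP (0.245 ± 0.038 and 0.166 ± 0.061), and at 6 h Klrd1, Cd8b1 and Prf1 lay within their spread (0.195, 0.193 and 0.161). In MCC CD69-hi at 24 h the order was Nkg7 (0.135 ± 0.055), Cd8b1 (0.120 ± 0.029) and Gzmb (0.109 ± 0.048), which do not differ beyond their spread, and Prf1 was at 0.0182 ± 0.0049. The MCC+GP CD69-lo libraries at 24 h were led by Ccl5 (3.11 ± 1.68) and Gzmb (2.82 ± 2.52), again with a spread wider than their difference.

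GP made no difference that passed for any of the 10 genes. GP against NP gave 0 members called at 1, 6 and 24 h by edgeR's quasi-likelihood test, 0 by DESeq2 and 0 at an unadjusted p under 0.05, beside 0%, 0% and 0.00581% of all genes called. Adding GP to MCC in CD69-hi cells also gave 0 members called by both tools at all 3 times (0.68%, 0% and 0% of all genes), with 0, 1 (Cd8b1) and 1 (Klrd1) members at an unadjusted p under 0.05. MCC+GP CD69-lo against MCC CD69-lo gave 0 by both tools at 1 h and 6 h (0% of all genes at each), with 0 and 1 (Gzmb) at an unadjusted p under 0.05. For Gzmb in CD69-hi cells at 24 h the log2 difference between MCC+GP and MCC was 0.31, with a 95% interval from -1.11 to 1.72. The difference of differences at 24 h, (MCC+GP CD69-hi minus GP) minus (MCC CD69-hi minus NP), passed for 0 members and 0 of all genes (edgeR), with 172 genes at an unadjusted p under 0.05, of which Klrd1 was the one member. At 24 h the CD69-lo cells of the 2 peptide settings are given as values only: MCC+GP against MCC had log2 differences of 1.15 for Gzmb, 1.79 for Ccl5, 2.16 for Klrk1 and 2.62 for Cd8a.

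**Figure D4:**
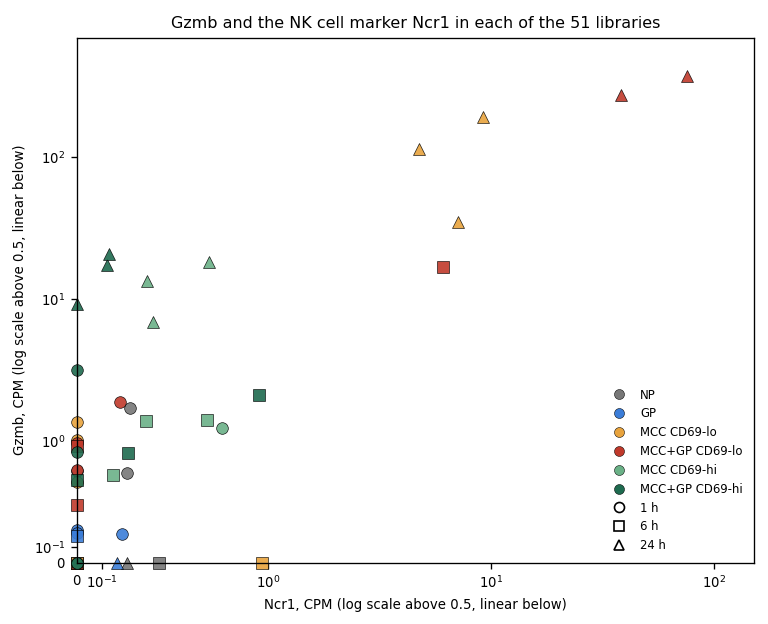
Each point is 1 of the 51 libraries, with the CPM of the NK cell marker Ncr1 on the x axis and of Gzmb on the y axis (both logarithmic above 0.5 CPM and linear below); colours give the group and shapes the time. The CD69-lo libraries at 24 h reach 4.72 to 75.6 CPM of Ncr1 with 35.3 to 376 CPM of Gzmb, apart from the one at 0 for both, while the CD69-hi libraries at 24 h hold 6.90 to 20.8 CPM of Gzmb with at most 0.544 CPM of Ncr1.

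NK cell genes were high where Gzmb was highest, in CD69-lo libraries at 24 h, and near 0 in CD69-hi libraries. Ncr1, which encodes the NK receptor NKp46, was at 4.72, 7.13 and 9.16 CPM at 24 h in CD69-lo libraries given MCC and at 38.3, 0 and 75.6 CPM in those given MCC+GP. It was at 0.282, 0.306 and 0.544 CPM in MCC CD69-hi, at 0.121, 0 and 0.128 CPM in MCC+GP CD69-hi and at most 0.201 CPM in NP and GP. Klrb1c, the gene of NK1.1, was at 4.72, 1.94 and 8.14 CPM in MCC CD69-lo and at most 0.242 CPM in CD69-hi libraries. In MCC+GP CD69-lo libraries it was at 12.8, 0 and 0 CPM, on 4 counts in replicate 1, although Gzmb was highest in replicate 3. Of 18 NK cell markers, 12 passed the filter on low counts and 11 of these rose in MCC+GP CD69-lo against GP at 24 h (15.3% of all genes), with a median log2 fold change of 7.03 against -0.39 over all genes tested. A gene can pass that filter through the group where it is high, so the count is only a description, and 6 of the 18 (Klra1, Klra4, Klra8, Klrc2, Cma1 and Gzmk) had no count in these libraries. Their summed level, leaving out Xcl1, which activated T cells also make (a choice made after its values were seen), ran from 265 to 488 CPM in MCC+GP CD69-lo and from 69.9 to 90.7 CPM in MCC CD69-lo. It ran from 1.16 to 6.53 CPM in both CD69-hi groups and from 2.69 to 17.5 CPM in NP and GP at 24 h. Tyrobp and Fcer1g, which are in the list, are also made by myeloid cells. Tyrobp alone held 102, 182 and 227 CPM in the MCC+GP CD69-lo libraries at 24 h, and in replicate 2 Ncr1 and Klrb1c were both at 0. The part of NK cells in the CD69-lo values of Gzmb, Gzma, Klrk1 and Ccl5 was not tested.

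Markers of other cells were also high in the MCC+GP CD69-lo libraries at 24 h. Against GP, 15.3% of all genes tested rose and 18.4% fell there. A gene can pass the filter through the group where it is high, so the counts of these lists at 1, 6 and 24 h are only a description. Siglech, a marker of plasmacytoid dendritic cells, stood at 348, 116 and 342 CPM in MCC+GP CD69-lo against at most 1.28 CPM in GP. The 8 markers of those cells summed to between 414 and 1442 CPM against 153 to 158, with 7 of 8 up and 0 down. For cDC1 cells, the dendritic cells that carry CD8 alpha, the 10 markers summed to between 862 and 1771 CPM in MCC+GP CD69-lo against 46.9 to 85.6 CPM in GP, with 7 of 9 tested up. The cDC1 sum was also higher in CD69-hi libraries at 24 h, at 239 to 485 CPM, although Clec9a was at 0 in all 6. Clec9a in the MCC+GP CD69-lo libraries was at 6.39, 66.3 and 60.0 CPM and Xcr1 at 3.19, 0 and 0 CPM. Other myeloid and dendritic markers (8 of 15 tested up) summed to between 4076 and 8005 CPM against 478 to 693, and B cell markers (10 of 12 up) to between 1209 and 2338 CPM against 453 to 691. In MCC CD69-lo libraries the sums at 24 h were 240 to 513 CPM for plasmacytoid dendritic cells, 338 to 450 CPM for cDC1 cells, within the range of the CD69-hi libraries, and 1542 to 2185 CPM for other myeloid and dendritic markers. The B cell sum there, 618 to 1325 CPM, overlapped that of NP (543 to 764). The CD4 T cell markers all passed as lower in MCC+GP CD69-lo against GP, 12 of 12, at 2939 to 4172 CPM in sum against 13907 to 14687 in GP. In the CD69-hi libraries at 24 h Siglech was at most 0.256 CPM, and the B cell sum (171 to 340 CPM) lay below that of NP and GP. The part of these cells in the rise of Cd8a in MCC+GP CD69-lo was not tested.

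At 1 h these markers moved differently. B cell markers rose in CD69-hi cells (12 of 12 tested in MCC CD69-hi against NP and 12 of 12 in MCC+GP CD69-hi against GP). Of all genes tested, 29.4% passed in either direction in MCC CD69-hi against NP at 1 h, and 33.8% in MCC+GP CD69-hi against GP. The NK cell sum without Xcl1 was 25.6 to 38.3 CPM in MCC CD69-hi against 3.80 to 9.21 CPM in NP. In that NK sum Tyrobp alone held 27.6, 18.6 and 22.3 CPM, while Ncr1 was at 0, 0 and 0.618 CPM and Klrb1c at 0 in all 3. For cDC1 cells 6 of 9 tested markers rose in MCC CD69-hi against NP, with a sum of 513 to 1050 CPM against 72.2 to 99.9 CPM. Of 15 other myeloid and dendritic markers 7 rose and 1 fell, and their sum was lower, at 415 to 901 CPM against 910 to 1232 CPM. The part of such cells in the 1 h rise of Ccl5 was not tested.

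The wider set of granule genes moved in both directions. Of 20 further granule and killing genes in the table, 18 were tested; in MCC CD69-hi against NP 6 rose and 2 fell at 1 h, 8 rose and 5 fell at 6 h, and 9 rose and 5 fell at 24 h, where 29.4%, 46.7% and 57.8% of all genes passed in either direction. The median log2 fold change at 24 h was 1.04, against -0.14 over all genes tested. Genes that rose at 24 h included Serpinb9, the inhibitor that protects killer cells from their own granzyme B, from 17.5 ± 5.6 to 173 ± 46 CPM (SD, n = 3 each; log2 fold change 3.29 ± 0.37, adjusted p = 1.04e-09). Cst7, which encodes the cathepsin inhibitor cystatin F, went from 1.79 to 58.4 CPM (4.95 ± 0.40), Stx11, a syntaxin of granule fusion, from 2.12 to 90.1 CPM (5.33 ± 0.38) and Serpinb6b from 6.09 to 86.8 CPM (3.81 ± 0.30). Fasl, the death ligand, rose from 4.14 to 18.2 CPM (2.14 ± 0.43), and Ifng with 142 counts against 2 (ratio 57.1, 95% counting interval 15.5 to 476). Genes that fell were Tnfsf10, the death ligand TRAIL, from 14.4 to 2.21 CPM (-2.69 ± 0.41), Ctsw, a cathepsin of killer cells, from 14.2 to 1.58 CPM (-3.16 ± 0.45), Lyst from 307 to 75.2 CPM (-2.03 ± 0.23), and the granule-docking genes Unc13d (-0.89 ± 0.17) and Stxbp2 (-0.66 ± 0.15). MCC+GP CD69-hi against GP gave the same counts at 24 h, 9 up and 5 down (58.5% of all genes in either direction), with a median of 1.19 against -0.15.

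The early members of that response were Serpinb6b (from 2.06 to 19.5 CPM), Stx11 (from 2.97 to 28.1), Fasl (from 15.3 to 52.6) and Srgn, the proteoglycan that packs granules (from 506 to 1352 CPM), all up at 1 h in MCC CD69-hi against NP and all with no overlap between libraries. In CD69-lo cells given MCC+GP, 10 of the 18 rose against GP at 24 h (15.3% of all genes) and 0 fell (18.4%), with a median of 1.84 against -0.39 over all genes. Serpinb9 reached 621 ± 88 CPM against 24.9 ± 3.0 CPM (log2 fold change 4.66 ± 0.40, adjusted p = 2.84e-11), and Serpinb9b 87.0 against 1.27 CPM (5.87 ± 0.79). Other granzymes were rare: over all 51 libraries Gzmc had 83 counts, Gzmk 5 and Gzmd 1, beside 1685 for Gzmb, 579 for Gzma and 381 for Gzmm. Gzmb, Gzmc and Gzmd sit in 1 cluster of similar genes on chromosome 14 with Gzme, Gzmf, Gzmg and Gzmn, which were not used here, and how reads shared between them were counted is not given in the sources used here.

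**Figure D5:**
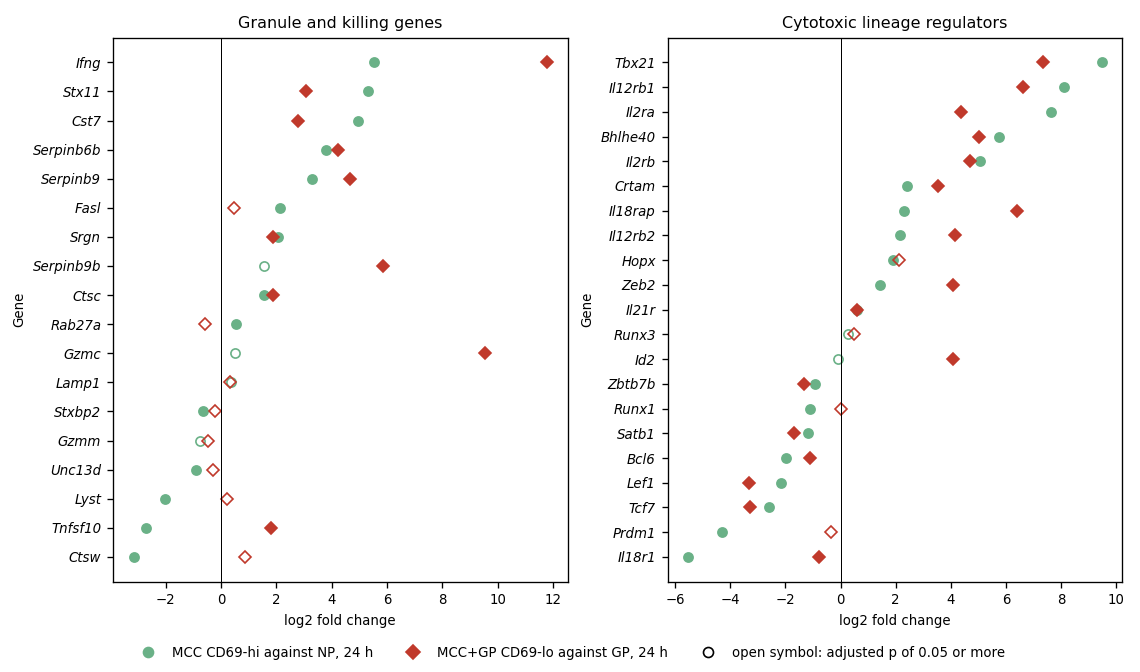
Symbols give the fitted log2 fold change (x axis) of each tested granule and killing gene (left) and cytotoxic lineage regulator (right) at 24 h, in MCC CD69-hi against NP (circles) and MCC+GP CD69-lo against GP (diamonds); open symbols did not reach an adjusted p under 0.05. Tbx21, Il12rb1, Il2ra and Bhlhe40 lie far right and Tcf7 and Lef1 left in both comparisons, while Ctsw and Tnfsf10 are left in CD69-hi alone.

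In the plot of both lists, Ifng and Gzmc had no count in GP, so that their fitted values there depend on the prior count.

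Regulators of cytotoxic and resting lineages moved in both directions. Of 22 such genes 21 passed the filter, and 6, 12 and 11 rose and 6, 7 and 8 fell at 1, 6 and 24 h in MCC CD69-hi against NP, beside the same 29.4%, 46.7% and 57.8% of all genes in either direction. Tbx21, the gene of T-bet, the T-box factor related to Eomes, went from 0.481 ± 0.117 to 11.5 ± 2.5 CPM at 1 h (log2 fold change 4.45 ± 0.76, adjusted p = 1.51e-05) and from 0.0506 to 60.6 CPM at 24 h (1290 counts against 1, ratio 1037, 95% counting interval 186 to 41004). At 24 h Il12rb1, a subunit of the IL-12 receptor, stood at 270 against 0.949 CPM, Il2ra at 916 against 4.59 CPM, Il2rb at 193 against 5.82 CPM and Bhlhe40 at 358 against 6.63 CPM. Crtam, which marks CD4 T cells that can become cytotoxic, stood at 45.0 ± 2.7 CPM at 6 h against 0.681 ± 0.032 in NP (5.99 ± 0.82, adjusted p = 5.18e-08), and at 24 h stood at 5.45 against 1.02 CPM (2.40 ± 0.68). Tcf7 fell from 2749 to 452 CPM and Lef1 from 560 to 126 CPM at 24 h, and Il18r1 from 113 to 2.46 CPM. Prdm1, the gene of Blimp-1, which supports granzyme B in killer cells, fell from 28.2 to 1.39 CPM (-4.29 ± 0.44). Zbtb7b, the ThPOK gene, fell from 98.4 to 18.1 CPM at 6 h (-2.45 ± 0.28, adjusted p = 6.68e-10).

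In MCC+GP CD69-lo against GP at 24 h, 11 regulators rose (15.3% of all genes) and 6 fell (18.4%). Tbx21 was at 46.3 ± 29.2 against 0.234 ± 0.206 CPM (7.33 ± 0.96 on the log2 scale, adjusted p = 1e-07), Il12rb1 at 109 against 1.26 CPM and Il2rb at 261 against 11.6 CPM. Tcf7 fell from 2708 to 240 CPM, Lef1 from 554 to 61.3 CPM and Zbtb7b from 168 to 70.6 CPM. NK cells are known to express Tbx21 and Il2rb without activation, and the NK marker sum of these libraries, 265 to 488 CPM, stands beside these values; its part in them was not tested.

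Over the means of the 18 groups, the gene whose pattern was most like that of Gzmb was Ifng, with a Pearson correlation of 0.930 of log2(CPM + 1), among 13529 genes with a mean of at least 5 CPM in a group. Dusp9 (0.926), Trim16 (0.909), Glipr2 (0.908) and Lrp8 (0.902) followed. Ifng, Dusp9, Trim16 and Lrp8 were highest in MCC+GP CD69-lo at 24 h, at means of 77.4 (SD 134), 7.45, 35.7 and 420 CPM, and Glipr2 in MCC CD69-lo at 24 h at 112 CPM. Among the members Nkg7 was the nearest, at 0.850, followed by Eomes (0.788) and Cd8a (0.769). The correlation was weakly negative for Prf1 (-0.18) and Cd8b1 (-0.10) and stood at -0.39 for Klrd1. These values are a description over 18 points that include the groups by which Gzmb was chosen, and the points share libraries and depth.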

How the data were processed

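Whole-gene read counts for 51 libraries were deposited by the authors as a table of raw counts, with a second deposited table of TPM-type values that sum to 9986 to 9996 per library. Per the labels' protocols, total RNA of sorted cells was selected for poly-A and sequenced in pairs. Per the submitters' processing notes, bcl2fastq 2.20, STAR 2.6.1c and HTSeq 0.9.1 were used on mm10. The annotation, the strand setting and the treatment of reads that map to several places are not given in the sources used here, so overlapping and antisense genes and near-identical granzymes cannot be told apart with certainty.

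From the counts, edgeR 4.0.16 (R 4.3.3) was run with trimmed-mean normalization, its default filter on low counts by group (17211 of 34923 genes kept, all 10 members among them), 1 coefficient for each of 18 groups and the robust quasi-likelihood F test, two-sided, with Benjamini-Hochberg adjustment over all genes tested in each of 25 comparisons and a threshold of 0.05. Level is CPM. Folds against a group at 0 set it at 3 counts over the group and leave out the counting error of the other group, so a 95% counting limit can lie below them. Intervals of ratios (95%) cover counting error only. Counts fix the precision: totals ran from 29030 to 10278776. The TPM-type values were averaged per group and not tested. Gene positions came from RefSeq's GRCm38.p6 gene table, which is mm10. Libraries were grouped by the labelled peptide, CD69 sort and time. The script was tested on simulated data.

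The members, lists and tests were chosen with earlier results of these data known. The text names the 10 members; up to 6 rising and 6 falling genes of 2 lists (granule genes, lineage regulators) per comparison, taken by size of change from those that passed, had 5 CPM or more in a group and showed no overlap of libraries; defining markers; and the 5 genes most like Gzmb. Further genes, such as single granzymes, were chosen after their values were seen. Alternatives were relative log expression scaling, DESeq2 1.42.0, no filter, only the compared groups, a block for 4 stretches of plate wells, leaving out each library, and, chosen after seeing the data, leaving out the 3 shallowest libraries.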

Additional observations from a re-analysis of the deposited data

Results flagged for a closer look

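The Ccl5 difference between the sorted populations given MCC+GP varied with time. The log2 difference of MCC+GP CD69-hi against MCC+GP CD69-lo was 1.39 at 1 h, which did not pass (adjusted p = 0.121, edgeR's quasi-likelihood test), -2.05 at 6 h and -4.90 at 24 h, which did. The difference itself passed between 6 h and 1 h (-3.44 ± 0.82 SE, adjusted p = 0.00106, edgeR's quasi-likelihood test) and between 24 h and 1 h (-6.29 ± 0.95, adjusted p = 1.18e-06). The mean NK cell marker sum without Xcl1 stood at 54.4 CPM in CD69-hi and 16.4 CPM in CD69-lo at 1 h, 11.8 and 45.6 CPM at 6 h, and 2.45 and 382 CPM at 24 h, and its part in the result was not tested.

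Gzma at 6 h differed in sign between the peptide settings in CD69-lo cells, with a log2 fold change of -0.54 in MCC CD69-lo against NP and 1.62 in MCC+GP CD69-lo against GP. The test of the difference (2.16 ± 1.18) did not pass, with an unadjusted p of 0.0724 and an adjusted p of 1 by edgeR's quasi-likelihood test over all genes.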

How the results depend on the processing

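Of 59 calls of members, 40 held under every alternative in which the gene was tested, and 19 were lost under at least 1. A gene that the filter on low counts removed under an alternative was not counted as lost there. With only the compared groups fitted, 5 members were tested in MCC+GP CD69-lo against GP at 24 h, where 7 had passed. Of the 19 lost calls 1 turned sign. Gzmb in MCC+GP CD69-hi against MCC+GP CD69-lo at 6 h ran from -3.21 to 1.02 when 1 library was left out, turning without MCC+GP CD69-lo 6 h replicate 3. The causes were not tested. Depth limits what was measured in MCC+GP CD69-lo at 24 h, at 29030 to 301455 counts per library.

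The number of members called moved as follows, from the value in the report. With DESeq2, NP 24 h against NP 1 h went from 1 to 3, MCC+GP CD69-lo against GP at 1 h from 0 to 1 and MCC+GP CD69-hi against GP at 1 h from 2 to 1. With relative log expression scaling the last went to 1 and MCC+GP CD69-hi against MCC+GP CD69-lo at 1 h from 1 to 0, and both moved likewise without the 3 shallowest libraries. With no filter, MCC CD69-hi against MCC CD69-lo at 1 h went from 0 to 1, MCC+GP CD69-hi against MCC+GP CD69-lo at 1 h from 1 to 2 and MCC CD69-lo against NP at 1 h from 1 to 0.

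With only the compared groups fitted, MCC+GP CD69-lo against GP went from 0, 2 and 7 to 1, 1 and 2 at 1, 6 and 24 h (6, 6 and 5 tested). MCC+GP CD69-hi against MCC+GP CD69-lo went from 1, 8 and 7 to 0, 5 and 4 (7, 5 and 6 tested). MCC CD69-lo against NP went from 1 to 0 at 1 h (5 tested) and at 6 h (6 tested). NP 24 h against NP 1 h went from 1 to 3 (6 tested) and MCC+GP CD69-hi against GP at 1 h from 2 to 1 (5 tested). Counts that moved by no more than 1.5 times are not listed, such as MCC CD69-hi against NP at 6 h from 6 to 4 here (6 tested).

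Plate wells in the labels form 4 stretches. Deviations of libraries from their group means had a median correlation of 0.193 over 366 pairs within a stretch and -0.0701 over 861 pairs across stretches. Above 0.1 were 261 of the 366 pairs and 87 of the 861. Libraries of a stretch thus tended to deviate alike, and the main fit has no block for the stretch. The labels do not say what the libraries of a stretch share. With a replicate block for the stretch, MCC+GP CD69-hi against MCC+GP CD69-lo at 1 h went from 1 to 2, MCC+GP CD69-lo against GP from 0 to 1 at 1 h and from 2 to 1 at 6 h (Gzmb adjusted p = 0.0506), MCC CD69-hi against MCC CD69-lo at 1 h from 0 to 1 and NP 24 h against NP 1 h from 1 to 2.

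Leaving out 1 library at a time gave 1 to 2, 4 to 6 and 5 to 6 members in MCC CD69-hi against NP at 1, 6 and 24 h, 1 to 2, 3 to 5 and 5 to 6 in MCC+GP CD69-hi against GP, 0 to 1, 1 to 2 and 6 to 7 in MCC+GP CD69-lo against GP, and 0 to 1, 5 to 8 and 7 to 7 in MCC+GP CD69-hi against MCC+GP CD69-lo. It gave 0 to 1 in MCC CD69-lo against NP at 1 h and 6 h, 3 to 4 in MCC CD69-hi against MCC CD69-lo at 6 h, 1 to 2 in NP 24 h against NP 1 h and 2 to 3 in GP 24 h against GP 1 h.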
